A study of Mus musculus with 8 samples.

Results

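The sodium pump of the heart is represented here by 7 genes of 54532 in the table, chosen by symbol: the Na,K-ATPase beta subunits Atp1b1, Atp1b2, Atp1b3 and Atp1b4, the FXYD regulators Fxyd1 and Fxyd5, and the sodium-calcium exchanger Slc8a1. The genes were picked with the comparison of Cre with EGFP libraries in view, so their differences in that comparison are given as descriptions without a test. Read counts came from mixed cells of the right and left atria of Chd4flox/flox mice injected on postnatal day 2 with an AAV9 vector. The KO group (4 libraries) received AAV9:Nppa-Cre and the control group (4 libraries) AAV9:Nppa-EGFP, so the floxed alleles and a viral vector were shared by both groups. The Nppa promoter is that of an atrial natriuretic peptide gene, and so drives the vector chiefly in atrial muscle cells, while the libraries held the RNA of whole atria. The sources used here give neither the age at collection nor how many mice made up a library.

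The Na,K-ATPase exports sodium and imports potassium at the expense of ATP. Its alpha subunit carries out transport, and its beta subunit is a glycoprotein needed for the alpha subunit to fold and reach the cell surface. FXYD proteins are small membrane proteins that tune the pump, and the sodium gradient that the pump maintains lets the exchanger Slc8a1 remove calcium from heart muscle cells after each beat. This is the setting in which cardiac glycosides act on the heart.

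Total counts were 34002292 to 38228982 in KO libraries and 39804625 to 40588007 in control libraries. The targeted gene Chd4 averaged 185 ± 12.4 CPM in KO and 292 ± 13.3 CPM in control (SD, n = 4 each), with no overlap between the groups. CPM denotes reads per 1e6 after TMM scaling. Libraries KO 2 and control 2 stood apart from the other 6 on the second principal component of the 500 most variable genes (20.3% of the variance, at -21.4 and -30.4 against 1.3 to 14.5). For some results the values without these libraries are also given. Heart muscle markers were present in every group, with none of the 8 listed at 0, and 6 of the 8 were called lower and 1 higher in KO. Their summed level was 43064 to 55094 CPM in KO and 63662 to 72189 CPM in control. Of 8 markers for each of several other cell types, 5 fibroblast, 5 endothelial, 5 macrophage and 6 epicardial genes were called higher (1 endothelial gene lower). Of 8 smooth muscle and pericyte markers 4 were called higher and 2 lower, with sums of 446 to 591 CPM in KO and 502 to 791 CPM in control. These marker counts stand beside 14.8% of all tested genes called higher and 13.1% lower. In bulk RNA, fewer cells of a type and less RNA per cell cannot be told apart, and the part of this shift in the results was not tested.

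The members lay on 6 chromosomes, and the 2 FXYD genes were neighbours. On GRCm38 with GENCODE M21 annotation, Atp1b1 (ENSMUSG00000026576) was at chr1:164437109-164458355, Atp1b2 (ENSMUSG00000041329) at chr11:69599736-69605942, and Atp1b3 (ENSMUSG00000032412) at chr9:96332655-96364442. Atp1b4 (ENSMUSG00000016327) was at chrX:38316184-38336769 and Slc8a1 (ENSMUSG00000054640) at chr17:81373105-81738377. Fxyd5 (ENSMUSG00000009687) was at chr7:31032722-31042481 and Fxyd1 (ENSMUSG00000036570) at chr7:31051678-31057199, separated by 9197 bases that hold Fxyd7. The 7 genes were annotated as protein-coding, and Atp1b4 alone lay on the plus strand.

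The promoter windows of Atp1b1, Atp1b3 and Atp1b4 differed in CpG content. RefSeq windows of 300 bases (250 before to 50 after the RefSeq start, GRCm38.p6) were used for 6 of the 7 members. Atp1b3 had 2 windows and Atp1b2 none. The RefSeq start can differ from the start of the GENCODE gene body given above. The Atp1b4 window ended at 38316171, before the GENCODE start of 38316184, and the Fxyd1 window lay inside the GENCODE gene body. Motif positions below are counted from the RefSeq start. The 2 Atp1b3 windows held 34 and 39 CpG dinucleotides and that of Atp1b1 held 31, above the upper quartile of 20 over 32851 promoter windows of the same length. The window of Atp1b4 held 5 CpG, those of Fxyd1 and Fxyd5 6 each, and that of Slc8a1 9. Over the 32851 windows the lower quartile was 3 and the median 7. The windows of Atp1b4, the beta gene nearly silent in control atria, and of Atp1b1, the beta gene with the highest level in either group, are shown. CpG number and level did not go together throughout: Fxyd1, with 6 CpG, was at 104 CPM per kb in control, beside 108 for Atp1b1. The 2 printed windows lay at chrX:38315872-38316171 on the plus strand and chr1:164458306-164458605 on the minus strand. Both are printed 5′ to 3′ along the gene with each CpG in capitals.
Atp1b4: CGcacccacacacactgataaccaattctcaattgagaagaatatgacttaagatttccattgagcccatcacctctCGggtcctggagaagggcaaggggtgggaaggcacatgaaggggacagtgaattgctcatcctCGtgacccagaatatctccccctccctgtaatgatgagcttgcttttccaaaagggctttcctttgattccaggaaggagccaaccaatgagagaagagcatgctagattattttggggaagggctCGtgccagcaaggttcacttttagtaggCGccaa
Atp1b1: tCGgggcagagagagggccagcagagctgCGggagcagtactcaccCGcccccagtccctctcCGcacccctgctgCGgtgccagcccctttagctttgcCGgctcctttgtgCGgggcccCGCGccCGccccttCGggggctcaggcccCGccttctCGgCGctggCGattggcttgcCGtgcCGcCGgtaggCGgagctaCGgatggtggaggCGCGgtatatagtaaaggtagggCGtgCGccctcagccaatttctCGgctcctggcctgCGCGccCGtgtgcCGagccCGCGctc
The T-box core AGGTGT, the letters bound by factors such as TBX5, was searched on both strands. It occurred in the window of Fxyd5, starting 32 bases before the RefSeq start, and in no other member window. It was present in 13.7% of the 32851 windows. The GATA letters AGATAA occurred in the window of Slc8a1 and no other, 68 bases before the start (11.2% of windows). The E-box CANNTG occurred in the windows of Atp1b4 (221 and 141 bases before the start), Atp1b3, Fxyd5 and Slc8a1, as in 72.3% of windows. None of these matches in member windows overlapped another. A match is a description of the letters and not a site of binding.

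Among the beta subunits, Atp1b4 and Atp1b2 stood higher in every KO library than in any control library, whereas Atp1b1 and Atp1b3 overlapped between the groups. Counting all 7 members, 2 passed the threshold higher (Atp1b2 and Atp1b4) and 1 lower (Fxyd1), beside 27.9% of the 18033 tested genes called in either direction by edgeR at an adjusted p under 0.05, 14.8% higher and 13.1% lower. The filter on low counts kept the 7 members, Atp1b4 only through its KO libraries. Atp1b2 and Atp1b4 also had groups that did not overlap, beside 29.2% of tested genes in either direction and 15.3% with KO higher, and both were called at least 2-fold higher, beside 3.9%. Since the members were chosen on this comparison, nothing is read from these counts.

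**Figure D1:**
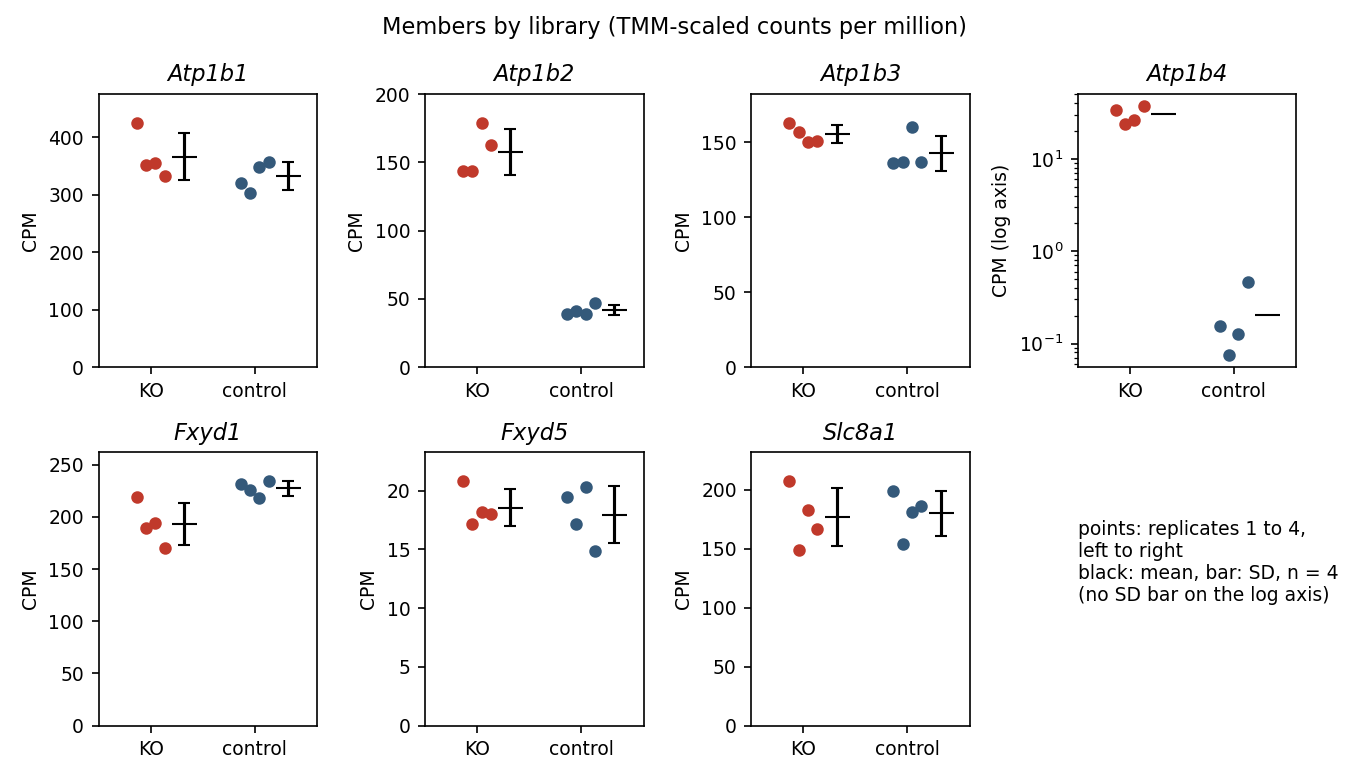
CPM of the 7 members, on a linear axis from 0 except for Atp1b4 (log axis), with a point for each of the 4 KO (left) and 4 control (right) libraries, a black line at the mean and a bar for the SD. Atp1b2 and Atp1b4 do not overlap between the groups, with the lowest KO library at 144 and 23.8 CPM against 46.9 and 0.458 CPM in the highest control library, while the other 5 members overlap.

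Atp1b4 encodes a beta-like protein that in placental mammals is found mainly in the inner nuclear membrane of muscle around birth and is not known to serve the pump. Its level was 33.8, 23.8, 26.5 and 37.4 CPM in KO 1 to 4, against 0.156, 0.0756, 0.128 and 0.458 CPM in control 1 to 4. The KO libraries held 4464 reads in all and the control libraries 32, of which control 4 held 18. The means were 30.4 ± 6.31 CPM in KO and 0.204 ± 0.173 CPM in control (SD, n = 4 each), a ratio of 149 and a log2 fold change of 7.19 (SE 0.33). Thus the gene ranked 13th from the highest log2 fold change of 18033 tested genes, and 17780th by mean level in control. The ratio rests on few control reads: the log2 fold change was 7.95 without control 4, 7.98 against controls 1 and 2 alone and 6.66 against controls 3 and 4 alone. Among KO libraries KO 2 was lowest and KO 4 highest, with a coefficient of variation of 20.7%, the widest of the 7 members in KO.

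Neither Snw1 nor Smad7, listed for a nuclear role of the Atp1b4 protein, passed the test. Snw1, a transcriptional coregulator bound by the Atp1b4 protein, averaged 41.8 ± 3.82 CPM in KO atria and 42.8 ± 1.1 CPM in control atria (SD, n = 4 each, edgeR adjusted p = 0.756). Smad7, an inhibitor of TGF-beta signalling, averaged 58.2 ± 6.92 CPM in KO atria and 58.2 ± 4.6 CPM in control atria (adjusted p = 0.999). Atp1b4 is also expressed in skeletal muscle, and of 8 skeletal muscle markers 0 were called higher and 1 lower by edgeR. Over all tested genes 14.8% were called higher and 13.1% lower, so a count on 8 markers says little. The median log2 fold change of these markers was -0.88. Their summed level was 824 to 1467 CPM in KO and 1307 to 1379.6 CPM in control. Whether skeletal muscle contributed to Atp1b4 was not tested.

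Atp1b2 encodes the beta subunit known from glia as an adhesion molecule, and it forms pumps mainly in brain. Its level was 144, 144, 179 and 163 CPM in KO 1 to 4, against 38.8, 41.4, 39.3 and 46.9 CPM in control 1 to 4. The KO libraries thus lay together, about as far from each other in relative terms (coefficient of variation 10.6%) as the control libraries (8.88%). The means were 157 ± 16.6 CPM in KO and 41.6 ± 3.70 CPM in control (SD, n = 4 each), 3.78-fold, with a log2 fold change of 1.92 (SE 0.09). Its range over 20 alternative fits was 1.85 to 2.00. Of 8 Schwann cell and glial markers, 0 were called higher and 1 lower by edgeR, with a median log2 fold change of 0.18. Their summed level was 36.2 to 43.1 CPM in KO and 40.2 to 47.4 CPM in control. Of 8 neuronal markers 5 were tested and none was called. The sums over all 8 were 9.85 to 14.5 CPM in KO and 8.57 to 19.7 CPM in control. Over all tested genes 14.8% were called higher and 13.1% lower, so counts on so few markers say little. Whether glia or neurons contributed to Atp1b2 was not tested.

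Atp1b1, the main beta subunit of heart muscle, was at 425, 352, 355 and 332 CPM in KO 1 to 4, against 321, 303, 348 and 356 CPM in control 1 to 4. KO 1 was above every other library and the remaining 3 KO libraries lay within the range of the controls. The means were 366 ± 40.6 CPM in KO and 332 ± 24.4 CPM in control (SD, n = 4 each), a log2 fold change of 0.14 (SE 0.08) that was 0.06 without KO 1. Exons of Nme7 on the opposite strand cover 18.7% of the annotated exon length of Atp1b1, and the sources used here do not say whether counting used the strand. Nme7 itself averaged 6.50 ± 0.725 CPM in KO atria and 7.0 ± 0.838 CPM in control atria.

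Atp1b3, a widely expressed beta subunit, was at 163, 157, 150.3 and 151 CPM in KO 1 to 4, against 136, 137, 160.4 and 137 CPM in control 1 to 4. Control 3 alone among the controls reached the KO values. The means were 155 ± 5.94 CPM in KO and 142 ± 12 CPM in control (SD, n = 4 each), a log2 fold change of 0.12 (SE 0.07) that was 0.18 without control 3. In that fit Atp1b3 was past the threshold, which is a description and not a test. The gene Gm1848 shares 9.71% of the 50-base words of Atp1b3 transcripts and held 28 reads in the KO group and 31 in the control group, where Atp1b3 held 22932 and 22307.

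The makeup of the beta subunit RNA differed between the groups. Levels per length, as CPM per kilobase of annotated exon, were summed over the 4 beta genes in each library, and each gene was given as a share of that sum. Atp1b2 held 14.2%, 15.9%, 19.1% and 18.2% in KO 1 to 4, against 5.57%, 6.12%, 5.07% and 6.23% in control 1 to 4. Atp1b4 held 2.57% to 4.06% in KO and 0.0109% to 0.0592% in control. Atp1b1 nevertheless stayed the largest share, at 51.6 ± 2.66% in KO and 60.6 ± 1.59% in control (SD, n = 4 each). Atp1b3 held 28.4 ± 1.16% in KO and 33.6 ± 1.91% in control. The lower shares of these 2 genes came without lower levels, since Atp1b1 and Atp1b3 together were at 184 ± 15.4 CPM per kb in KO and 167 ± 11.0 in control.

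The summed beta level per length was 229 ± 13.8 CPM per kb in KO and 178 ± 11.2 in control (SD, n = 4 each), and the 4 KO libraries (219 to 249) lay above the 4 controls (166 to 189.6). With the length of the longest transcript in place of all exons, it averaged 269 CPM per kb in KO and 211 in control. These sums and shares describe RNA and follow from the members' own values, so they carry no test.

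**Figure D2:**
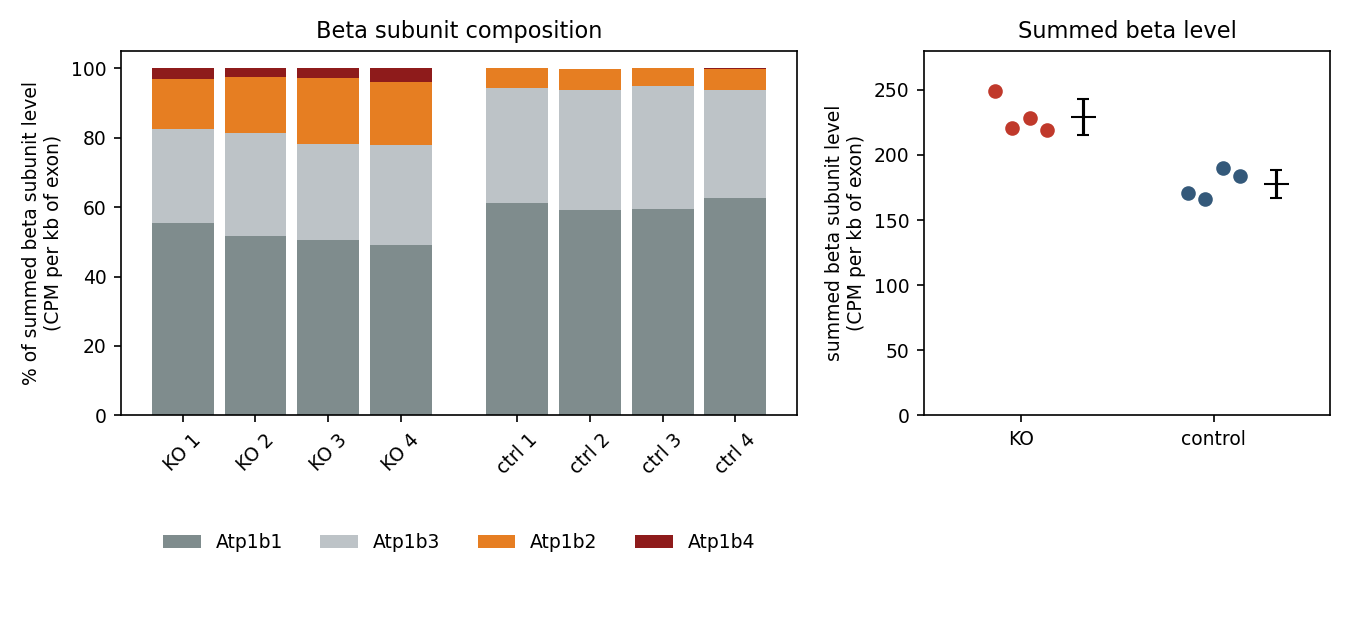
Left, share of each beta subunit gene in the summed beta level (CPM per kb of annotated exon, %) in each of 4 KO and 4 control libraries; right, the summed beta level (CPM per kb) in each library, with the mean and SD. Atp1b2 and Atp1b4 take 14.2% to 19.1% and 2.57% to 4.06% in KO, and the summed level lies at 219 to 249 CPM per kb in KO and 166 to 189.6 in control.

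The regulators and the exchanger showed small differences. Fxyd1 encodes phospholemman, which restrains the cardiac pump until it is phosphorylated. It was at 219, 189.6, 194 and 170.3 CPM in KO 1 to 4, against 231, 226, 218 and 234 CPM in control 1 to 4. KO 1 overlapped the controls, and the other 3 KO libraries lay below them. The means were 193 ± 20.1 CPM in KO and 227 ± 7.04 CPM in control (SD, n = 4 each), a log2 fold change of -0.23 (SE 0.07). Over 20 alternative fits the fold change lay between -0.31 and -0.16. Its place among the genes past the threshold was lost when KO 2, KO 3, KO 4, control 1 or control 4 was left out. Since Fxyd1 was chosen with this comparison in view, that place is a description and not a test.

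Fxyd5, known as dysadherin, is a pump regulator of epithelia and other tissues that also affects cell adhesion. It was at 20.8, 17.2, 18.2 and 18.0 CPM in KO 1 to 4, against 19.5, 17.2, 20.3 and 14.9 CPM in control 1 to 4. The groups overlapped, and the log2 fold change was 0.04 (SE 0.10), with a range of -0.04 to 0.12 over the 20 alternatives. Slc8a1, the main sodium-calcium exchanger of heart muscle, was at 207, 149, 183 and 167 CPM in KO 1 to 4, against 199, 154, 181 and 186 CPM in control 1 to 4. Here the lowest library of each group was replicate 2, and the means were 176 ± 24.8 CPM in KO and 180 ± 19.2 CPM in control (SD, n = 4 each). The log2 fold change was -0.03 (SE 0.10), and it took either sign over the 20 alternatives (-0.12 to 0.05). It was 0.04 without KO 2, -0.10 without control 2 and -0.03 without both.

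Within control atria the members differed in level by over 3 orders of magnitude. Per kilobase of annotated exon, Atp1b1 (108 ± 7.93 CPM per kb, SD, n = 4) and Fxyd1 (104 ± 3.22) were highest, and their libraries overlapped. Atp1b3 followed at 59.6 ± 5.0 CPM per kb. Atp1b2 (10.2 ± 0.905) and Slc8a1 (9.57 ± 1.02) came next and overlapped each other, then Fxyd5 at 4.29 ± 0.575 and Atp1b4 at 0.0487 ± 0.0411. In KO the order was the same except that Atp1b4 (7.24 ± 1.5 CPM per kb) stood above Fxyd5 (4.42 ± 0.379). Atp1b2 at 38.5 ± 4.07 CPM per kb no longer overlapped Slc8a1 at 9.37 ± 1.32. Fxyd1 has 17 annotated transcripts, of which the longest is 668 bases against 2186 bases of all exons. By longest transcript it ranked first in control at 340.2 ± 10.5 CPM per kb, above Atp1b1 at 129 ± 9.47.

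The members were also compared between controls 3 and 4 and controls 1 and 2, which carry different library name prefixes in the labels. This contrast had no part in choosing them. None of the 7 was called by edgeR, none had an unadjusted p under 0.05, and DESeq2 and limma-voom also called 0. Over all genes edgeR called 7 of 18033 (0.0388%). The widest difference was that of Atp1b4, at 0.293 CPM in controls 3 and 4 and 0.116 CPM in controls 1 and 2 (log2 difference 1.32, SE 0.81, adjusted p = 0.798). Atp1b1 was at 352 CPM in controls 3 and 4 and 312 CPM in controls 1 and 2 (log2 difference 0.17, SE 0.11, adjusted p = 0.799). For Atp1b2 the log2 difference was 0.10 (SE 0.12, adjusted p = 0.908). The contrast rests on 2 libraries a side, in a fit of all 8 libraries with KO as its own group. Its standard errors and p-values thus also draw on the spread among KO libraries. The size of difference it could detect was not measured. Prefixes were never shared by KO and control, so prefix and group cannot be told apart between them. The KO group was also split by prefix, with KO 1 under a prefix of its own and KO 2, KO 3 and KO 4 under another. KO 1 was the highest KO library for Atp1b1, Atp1b3, Fxyd1, Fxyd5 and Slc8a1, and there prefix and library cannot be told apart.

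Genes listed beside the members, which cover ion transport, membrane anchors, kinases, phosphatase genes, Snw1 and Smad7, moved in both directions. Of these 41 genes 36 were tested, of which 8 rose, 6 fell and 22 were not called (edgeR, adjusted over all genes), beside 14.8% of all tested genes called higher and 13.1% lower. The counts by list given next rest on 4 to 10 genes each and are to be read against the same shares. Their median log2 fold change was 0.01, the same as over all 18033 tested genes.

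Of 8 tested FXYD and NKAIN genes beside the members, 2 rose and 0 fell by edgeR. Nkain4, of a family of proteins that interact with the Na,K-ATPase beta subunit, averaged 40.6 ± 3.35 CPM in KO atria and 30.9 ± 5.16 CPM in control atria (SD, n = 4 each, adjusted p = 0.023). That call was lost in 6 of 20 alternatives (adjusted p up to 0.0754), among them without KO 2, without KO 4, without control 4 and with the replicate block (0.0639). The log2 fold change of Nkain4 was 0.39, and 0.25 without KO 2 and control 2 together (adjusted p = 0.075). Fxyd2, the FXYD protein of kidney, averaged 0.888 ± 0.195 CPM in KO atria and 0.493 ± 0.122 CPM in control atria (adjusted p = 0.045). The Fxyd2 call held in 6 of 19 alternatives, and leaving out any library other than control 1 ended it (adjusted p up to 0.111). It was also lost without KO 2 and control 2 together (0.0935). Fxyd6, at 40.1 ± 5.36 CPM in KO atria and 36.7 ± 1.80 CPM in control atria, was not called (adjusted p = 0.322). Fxyd3 (8.87 CPM in KO, 7.80 CPM in control) and Fxyd7 (0.787 CPM in KO, 1.02 CPM in control) were likewise not called.

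Among 7 tested relatives of Slc8a1, 1 rose and 2 fell. Slc24a2 and Slc24a4 encode exchangers that carry potassium along with calcium against sodium, known mainly from brain and sensory cells. Slc24a2 was at 8.44, 8.63, 10.2 and 9.10 CPM in KO 1 to 4, against 17.5, 21.4, 25.6 and 19.2 CPM in control 1 to 4, with no overlap. Its log2 fold change was -1.20 (SE 0.12, adjusted p = 2.18e-05). Slc24a4 was at 7.90, 6.30, 5.18 and 4.61 CPM in KO 1 to 4, against 14.3, 21.3, 11.1 and 19.4 CPM in control 1 to 4. It fell by 1.46 on the log2 scale (SE 0.23, adjusted p = 0.00122), again without overlap. Slc8a3, the exchanger known from skeletal muscle and brain, rose to 3.36 ± 0.239 CPM in KO, against 2.21 ± 0.281 CPM in control (adjusted p = 0.0134, or 0.0983 against controls 3 and 4 alone). None of the 4 plasma membrane calcium pump genes was called, with 2 of them at an unadjusted p under 0.05 and of opposite sign. Atp2b1 averaged 129.8 ± 0.791 CPM in KO atria and 119.7 ± 2.31 CPM in control atria (log2 fold change 0.12, adjusted p = 0.0878). Atp2b3 averaged 0.277 ± 0.157 CPM in KO atria and 0.679 ± 0.335 CPM in control atria (log2 fold change -1.30, adjusted p = 0.0866).

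Of 5 genes that move protons, bicarbonate or chloride, 2 rose and 2 fell. Slc4a3, an exchanger of chloride for bicarbonate in heart, was at 225, 174, 216 and 199 CPM in KO 1 to 4, against 153, 134, 143 and 154 CPM in control 1 to 4. The groups did not overlap (log2 fold change 0.48, SE 0.08, adjusted p = 0.0011). Slc12a2, a sodium, potassium and chloride cotransporter, averaged 36.5 ± 2.10 CPM in KO atria and 28.9 ± 3.67 CPM in control atria (adjusted p = 0.0144, or 0.101 against controls 1 and 2 alone). The sodium-bicarbonate cotransporters Slc4a4 and Slc4a7 fell by 0.31 and 0.24 on the log2 scale (adjusted p = 0.012 and 0.0373). The call of Slc4a4 was lost without scaling (0.056) and against controls 3 and 4 alone (0.0617). The call of Slc4a7 was lost in 12 of 20 alternatives, among them without KO 2, KO 3, KO 4, control 1, control 3 or control 4 (adjusted p up to 0.111 in these 6).

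Of 10 membrane anchors, kinases and phosphatase genes, 3 rose, 2 fell and 5 were not called. Prkce, a protein kinase C of heart, averaged 35.1 ± 1.99 CPM in KO atria and 46.7 ± 2.83 CPM in control atria (SD, n = 4 each, log2 fold change -0.41, SE 0.06, adjusted p = 0.000602). Cav3, the caveolin of muscle membranes, fell by 0.32 on the log2 scale (adjusted p = 0.0262), a call lost without KO 2, KO 3, KO 4, control 1 or control 4 (up to 0.0775). The Cav3 call was also lost without scaling (0.055) and against controls 1 and 2 alone (0.119). Ppp1r1a, an inhibitor of protein phosphatase 1, rose by 0.64 on the log2 scale (SE 0.14, adjusted p = 0.00559, or 0.0715 against controls 1 and 2 alone). The tyrosine kinase genes Src and Ptk2b were higher by 0.41 and 0.40 (adjusted p = 0.00339 and 0.00395), and against controls 3 and 4 alone both calls were lost (0.0504 for Src and 0.0643 for Ptk2b). Prkaca, a catalytic subunit of protein kinase A, which phosphorylates phospholemman, averaged 167 ± 6.48 CPM in KO atria and 162 ± 12 CPM in control atria (adjusted p = 0.62).

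**Figure D3:**
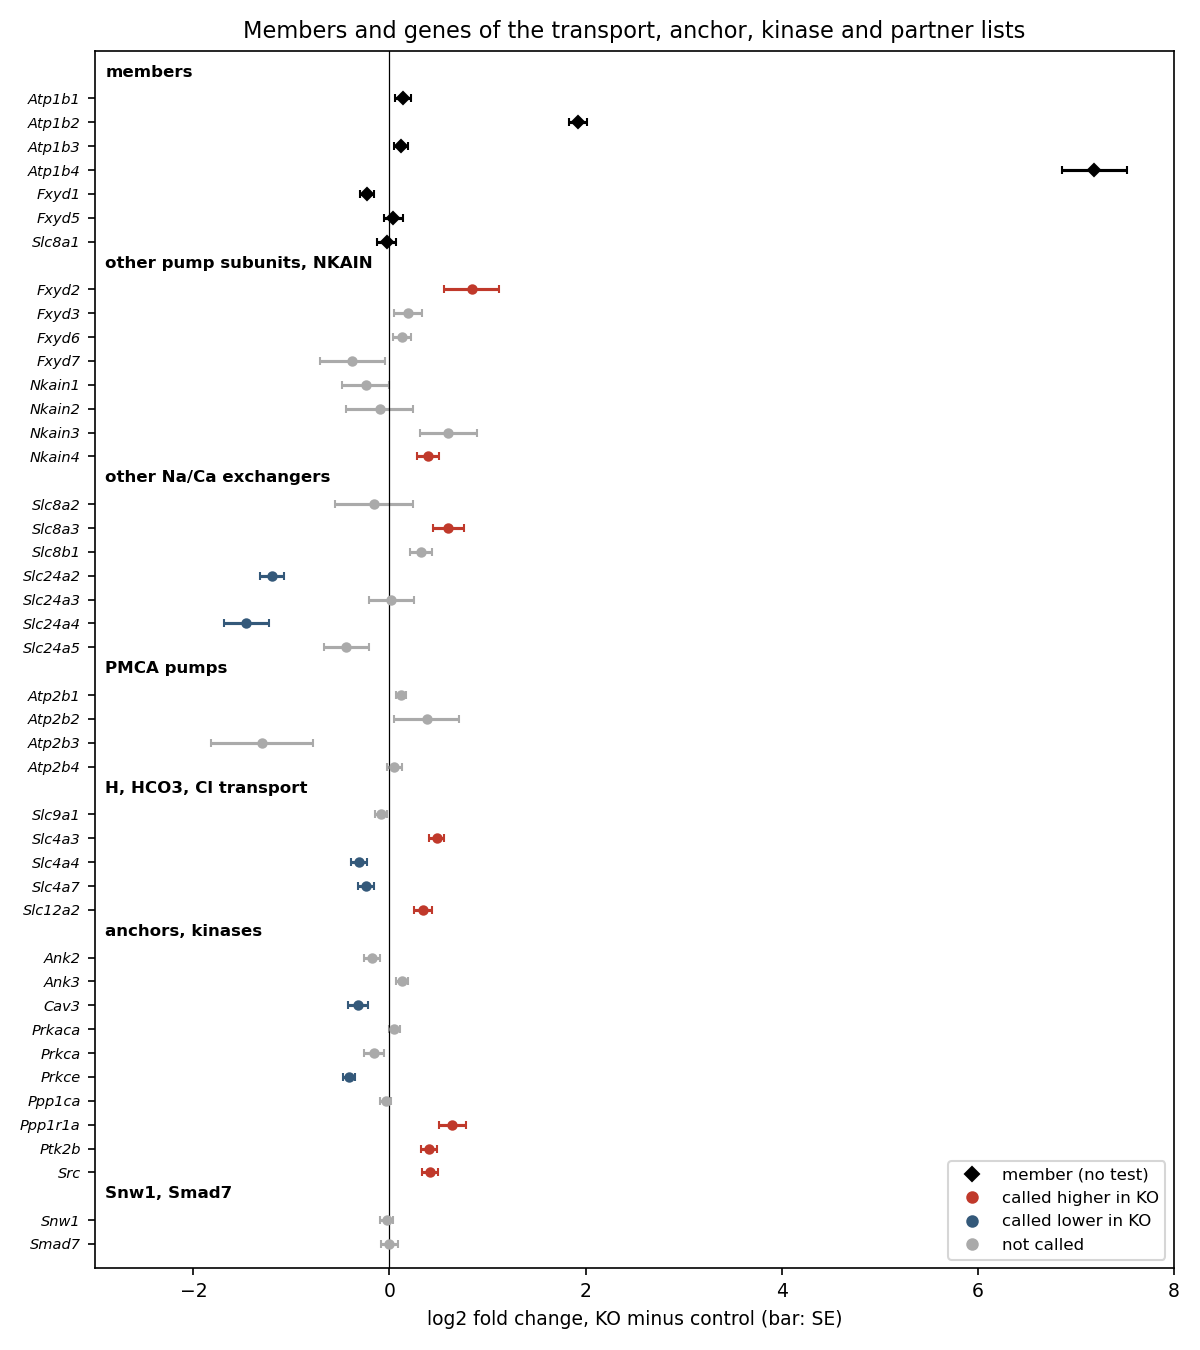
Log2 fold change (KO minus control, bar: SE from edgeR, n = 4 each) of the 7 members (black diamonds, no test) and the 36 tested genes listed beside them (ion transport, membrane anchors, kinases and phosphatase genes, Snw1 and Smad7), coloured by call. Atp1b4 (7.19) and Atp1b2 (1.92) exceed every other gene in the plot, and Slc24a4 (-1.46) lies furthest to the left.

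Genes next to the members were described in turn. Within 100 kb of a member's body 54 other genes of the table were described, of which 32 were tested, and 5 rose and 4 fell, beside 27.9% of all tested genes called in either direction. Efnb3, which encodes the membrane ligand ephrin-B3, lies 39.5 kb from Atp1b2 on the same strand. It was at 107, 95.9, 133 and 88.9 CPM in KO 1 to 4, against 15.9, 15.6, 11.3 and 10.6 CPM in control 1 to 4 (log2 fold change 2.99, SE 0.18, adjusted p = 5.16e-06). Of the 14 tested neighbours of Atp1b2, Tnfsf13 also rose (0.75 on the log2 scale, adjusted p = 0.0194). Sat2 and Fxr2, which lie closer to Atp1b2 than Efnb3 at 16.1 and 27.0 kb, fell by 0.55 and 0.17 (adjusted p = 0.0269 and 0.0359). Trp53 and Wrap53, also closer at 7.9 and 19.5 kb, were not called (log2 fold change 0.07 and -0.07). The Tnfsf13 call was lost without KO 3 (0.0654) and against controls 1 and 2 alone (0.0952) or controls 3 and 4 alone (0.0707). That of Sat2 was lost without KO 3, KO 4, control 2 or control 3, and that of Fxr2 without KO 2, KO 3, KO 4, control 1 or control 4. Both the Sat2 and Fxr2 calls were also lost without scaling (0.0577 and 0.23) and against either control pair alone (up to 0.107 and 0.098). The Fxr2 call held in 9 of 20 alternatives.

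Hpn, the serine protease hepsin, lies 41.5 kb from Fxyd1 and averaged 1.35 ± 0.285 CPM in KO atria and 0.344 ± 0.117 CPM in control atria (SD, n = 4 each, adjusted p = 0.000526). The genes nearest to the FXYD pair, Fxyd7, Lgi4 and Fxyd3, were not called. On the other side Hamp, the iron hormone gene hepcidin, 88.7 kb from Fxyd5, was at 17.2, 12.7, 11.7 and 9.73 CPM in KO 1 to 4, against 87.4, 87.4, 39.9 and 86.7 CPM in control 1 to 4. It fell by 2.56 on the log2 scale (SE 0.31, adjusted p = 0.000929), with control 3 the lowest control. Gramd1a rose by 0.34 (adjusted p = 0.0159, 0.05 without KO 4 and 0.0835 against controls 3 and 4 alone).

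Of 3 tested neighbours of Atp1b4, 1 rose. Lamp2, a lysosomal membrane protein gene 64.6 kb away, rose by 0.22 on the log2 scale, with 371 ± 6.20 CPM in KO and 319 ± 20.9 CPM in control (SD, n = 4 each, adjusted p = 0.018). The Lamp2 call was lost without control 4 (0.0656) and against controls 1 and 2 alone (log2 fold change 0.14, adjusted p = 0.204). Tmem255a, at 2.87 ± 0.714 CPM in KO atria and 2.52 ± 0.688 CPM in control atria, was not called (adjusted p = 0.587). Near Atp1b3 the noncoding gene BC043934 fell by 0.69 on the log2 scale (adjusted p = 0.00565), near Atp1b1 none of 3 tested genes was called, and near Slc8a1 no gene was tested.

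**Figure D4:**
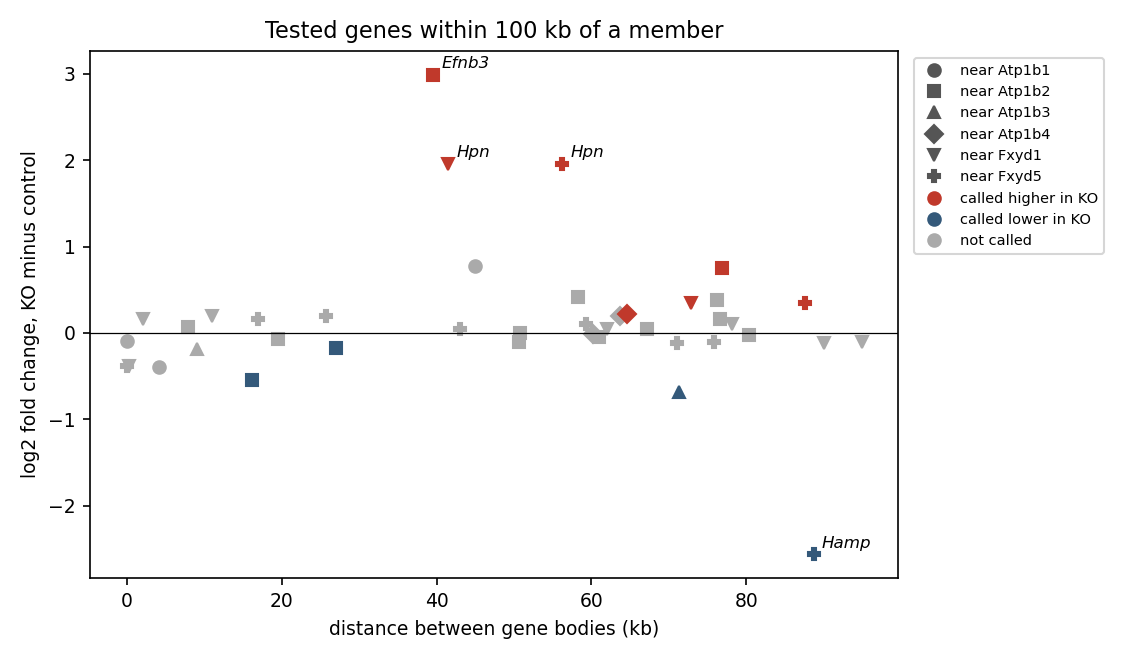
Log2 fold change (KO minus control) of the tested genes within 100 kb of a member, against the distance between gene bodies in kb, with a marker for each member and colours for the call. A gene near both Fxyd1 and Fxyd5 is drawn at each distance. Efnb3 (2.99) and Hpn (1.96) lie highest and Hamp (-2.56) lowest.

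The genes with profiles most like each member were named by the root mean square difference of log2 CPM over the 8 libraries, with each gene centred on its control mean, among 13130 candidate genes of at least 1 CPM. For Atp1b2 these were Peli3 (0.147), Otof (0.159) and Rom1 (0.161), and 23 genes lay within 0.25. Peli3 averaged 7.98 ± 1.09 CPM in KO atria and 2.16 ± 0.176 CPM in control atria (SD, n = 4 each). For Atp1b4 0 genes lay within 0.25. Tcfl5 was nearest at 0.538, with 12 ± 1.43 CPM in KO and 0.102 ± 0.154 CPM in control, before Nat3 at 0.98 and Snhg11 at 1.10. In control Atp1b4 held 3 to 18 reads a library, few beside the prior count of 2 in these log2 values. For Slc8a1 the nearest were Ciapin1 (0.0506), Jph2 (0.0552) and Emd (0.0728). Jph2 encodes the junctophilin that holds the calcium release sites of heart muscle at the cell membrane. Profiles near 0 are common, as 6482 genes lay within 0.25 of Atp1b1 and 7208 within 0.25 of Atp1b3. Their nearest genes were Pnkd, Rab3il1 and Arhgdia for Atp1b1 (0.0315 to 0.0419) and Sdhaf2, Atp6ap2 and Eid1 for Atp1b3 (0.0318 to 0.0380). Mrpl37, Ints11 and Rabac1 were nearest to Fxyd1 (0.0291 to 0.0366), and Plvap, Gtf2e1 and Sh3bgrl3 to Fxyd5 (0.0505 to 0.0672).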

How the data were processed

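The values deposited by the authors were raw counts of reads per gene in 8 libraries of oligo-dT selected RNA. STAR, DESeq2 and build mm10 are named without versions per the submitters' processing notes; for the counter, strand and annotation release the sources used here name none. Of 54532 gene identifiers, 54495 were in GENCODE M21, which gave coordinates and exon lengths. Columns were matched to samples by vector and number.

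Counts were tested with edgeR 4.0.16 in R 4.3.3 (filterByExpr with a minimum count of 10 and minimum total of 15, TMM, robust quasi-likelihood test, no covariate). This left 18033 genes, over which Benjamini-Hochberg adjustment was made, with calls at an adjusted p under 0.05. The standard error was the log2 fold change divided by the root of F. DESeq2 1.42.0 and limma 3.58.1 were alternatives. Log2 CPM values used a prior count of 2. The test was checked on simulated data for KO against control with 18033 genes and recovered 79.1% of 2-fold and 55.2% of 1.5-fold changes. Far fewer genes differed in the simulation, with 160 calls beside 5032 in the data, so these rates may not hold for the data.

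The members and lists were chosen with earlier results of these data known. Named genes were the members, Chd4, called genes of the lists beside the members, called neighbours within 100 kb and the 3 nearest profiles of each member. Other named genes were chosen after their values were seen. Some genes are not reported here and are left out of the lists, their counts and the figures. Levels are mean ± SD; counts limit precision, and a count of 3 was 0.0744 to 0.0885 CPM. Separate mice are not stated for the samples, so the p-values reflect only the variation among these libraries, which may be technical. Within groups, library pairs had a chi-square of 12.2 to 31 per degree of freedom, and none was treated as a copy. Other alternatives were scaling, filters, a replicate block, Y-linked expression as a covariate, each library left out, and each control pair alone; leaving out KO 2 and control 2 together was added after seeing the data.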

Additional observations from a re-analysis of the deposited data

Results flagged for a closer look

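Among 14 groups of 4 libraries examined (the 7 members in KO and in control), 1 had a library far from the other 3, where chance gives about 1 in 20. Control 3 stood above the other controls for Atp1b3, at 160.4 CPM against 136 to 137 CPM, a gap of 0.936 of the group's range.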

How the results depend on the processing

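The log2 fold change of Atp1b2 was 1.85 to 2.00 and that of Atp1b4 6.66 to 7.98 over 20 alternatives; as the members were chosen on this comparison, these ranges and the counts of members are descriptions. Members past the threshold and lower numbered 1 as reported (Fxyd1) and 0 with no scaling beyond library size, against controls 1 and 2 alone, against controls 3 and 4 alone and without KO 2 and control 2, and 0 to 1 with single libraries left out. With no scaling beyond library size 4 members were past it and higher (Atp1b1 and Atp1b3 in addition), and the median of all genes moved by 0.08 on the log2 scale. Without control 3, 3 members were past it and higher (Atp1b3 in addition). Listed genes called higher were 5 against either control pair alone, in place of 8, and those called lower were 3 without scaling, in place of 6. Neighbours called higher were 3 against either control pair alone, in place of 5, and those called lower were 2 without scaling and against either control pair alone, and 2 to 4 with single libraries left out. Over all genes, 1700 were higher against controls 3 and 4 alone, in place of 2677. Between the control pairs, 84 genes were called with no filter on low counts and 85 by DESeq2, in place of 7. With single KO libraries, which share in the spread of that fit, left out, 6 to 23 were called. The cause of these changes was not tested; fewer libraries were used where some were left out. By longest transcript the control levels were 129 CPM per kb for Atp1b1, 11.1 for Atp1b2, 71.4 for Atp1b3, 340.2 for Fxyd1 and 6.0 for Fxyd5. Of the 23 called listed genes and neighbours, 8 were called in every alternative. Correlations of deviations were -0.06 to 0.30 for KO and control libraries of the same number and -0.23 to 0.17 for others. The highest value, 0.30, was that of KO 2 with control 2. These values do not settle whether libraries of the same number were paired. With the replicate block Atp1b4 was at 7.23 and Fxyd1 at -0.24 on the log2 scale, and the same 3 members were past the threshold. Depth limits Atp1b4 in control, with 3 to 18 reads a library.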
